A study of Mus musculus with 33 samples.

Results

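Histone genes, the genes for the proteins around which DNA is wound, were followed through a mouse study of the RNA-binding protein hnRNP R and the noncoding RNA 7SK. Members were taken by symbol, as every gene whose name starts Hist1h, Hist2h, Hist3h, Hist4h, H1f, H2af or H3f. This gave 89 of 37926 records in the RNA tables, holding 90 histone symbols, and 83 of 36194 genes in the iCLIP tables. The 89 records split into 68 cluster genes (Hist1 to Hist4), 17 variants and 4 pseudogenes, and the 83 iCLIP genes into 66 cluster genes, 15 variants and 2 pseudogenes.

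The RNA groups came from primary motoneurons of CD-1 mice grown in microfluidic chambers, which keep axons apart from cell bodies and dendrites. They were axons with hnRNP R knockdown (3 samples), axons labelled 7SK knockdown (4) and GFP control axons (4), and the somatodendritic sides with hnRNP R knockdown (3), 7SK knockdown (4) and GFP control (4). The iCLIP libraries, which count cDNAs of RNA crosslinked to a protein, were 2 unfractionated hnRNP R libraries from motoneurons, 2 from NSC34 cells, 6 from nuclear or cytoplasmic fractions and 1 IgG library from NSC34 cells. NSC34 is a dividing hybrid line of mouse neuroblastoma and spinal cord cells. The labels give neither the age of the animals nor the way the knockdowns were made, and nothing says that the libraries of a group came from separate cultures, so p-values may measure technical spread only.

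Cluster histone genes supply the bulk of new histones while DNA is copied. Their mRNAs carry no introns and, in dividing cells, end in a stem-loop in place of a poly(A) tail; the stem-loop binding protein Slbp and the U7 particle (Lsm10, Lsm11) make that end. The variants H1f, H2af and H3f are mostly spliced, polyadenylated mRNAs made throughout the cell cycle, so they are the ones that neurons, which do not divide, can use to replace histones. 7SK holds the elongation kinase P-TEFb inactive, and hnRNP R is one of the proteins that bind 7SK. Some cluster genes are known from other work to make polyadenylated mRNA in differentiated cells, among them Hist1h1c and Hist3h2a.

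The sequences just upstream of the transcription start show how the classes differ in their promoters. Of the 90 symbols, 77 had a promoter in the RefSeq table (build GRCm38.p6), and 3 motifs were searched on both strands in the 250 bases before the start: the TATA box TATAAA, the CCAAT box CCAAT, and the octamer ATTTGCAT, known from H2B genes. None of the 3 contains another. TATAAA was present in 46.0% of 63 cluster promoters, 6.67% of 15 variant promoters and 12.4% of all 32851 promoters. CCAAT was present in 82.5%, 53.3% and 33.8% of the same sets, and ATTTGCAT in 22.2%, 6.67% and 1.6%. Among core types, all 17 H2B promoters held CCAAT and 7 held the octamer, whereas 3 of 12 H4 promoters held CCAAT and 0 held the octamer. These motifs were not particular to H2B. All H2A and H1 cluster promoters held CCAAT too, and several H2A ones held the octamer, among them those of Hist1h2ab and Hist2h2ac. A match describes the letters only.

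The 110 bases before the start are shown for 3 cluster genes whose mRNA results are given below and for the 2 variants with most iCLIP or mRNA signal, with the 3 motifs of either strand in capitals. Hist2h2bb (RefSeq H2bc18) lies at chr3:96269590-96269699 on the plus strand, Hist1h4d (H4c4) at chr13:23581458-23581567 on the plus strand, Hist1h1a (H1f1) at chr13:23763558-23763667 on the plus strand, H3f3b at chr11:116024505-116024614 on the minus strand and H2afy (Macroh2a1) at chr13:56135551-56135660 on the minus strand.
Hist2h2bb: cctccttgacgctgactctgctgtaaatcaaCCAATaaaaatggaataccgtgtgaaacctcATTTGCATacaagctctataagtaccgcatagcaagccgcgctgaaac
Hist1h4d: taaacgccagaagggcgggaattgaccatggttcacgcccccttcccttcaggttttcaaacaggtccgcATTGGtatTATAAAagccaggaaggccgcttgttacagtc
Hist1h1a: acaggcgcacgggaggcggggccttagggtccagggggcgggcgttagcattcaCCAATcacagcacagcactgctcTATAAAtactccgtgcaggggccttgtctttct
H3f3b: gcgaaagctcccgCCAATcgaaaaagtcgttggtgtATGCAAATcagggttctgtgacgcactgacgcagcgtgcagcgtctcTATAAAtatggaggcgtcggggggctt
H2afy: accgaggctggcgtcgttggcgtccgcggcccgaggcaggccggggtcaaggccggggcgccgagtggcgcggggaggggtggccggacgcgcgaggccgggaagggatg
H3f3b, a variant, held all 3 motifs in this stretch, and was the 1 variant of 15 with TATAAA and the 1 with the octamer. H2afy held none of them here.

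The labels were checked first. Hnrnpr, in the authors' deposited tables, had 3.98 FPKM in hnRNP R knockdown axons, against 9.93 in control axons. In the somatodendritic table it had 10.8 FPKM with hnRNP R knockdown, against 27.2 in control. The authors' deposited q of Hnrnpr was 0.310 there, and it was untested in hnRNP R knockdown axons. Rn7sk, the gene of 7SK, had 6370 FPKM in the 7SK knockdown somatodendritic side, against 9104 in control, a log2 ratio of -0.52 with an authors' deposited q of 0.00407. In axons it had 3508 FPKM in the group labelled 7SK knockdown, against 2708 in control, so 7SK was not lower there and the axon group is called by its label throughout. With hnRNP R knockdown Rn7sk was higher on the somatodendritic side, at 13493 FPKM, against 9892 in control (authors' deposited q 0.00865). In hnRNP R knockdown axons it had 4545 FPKM, against 2638 in control (authors' deposited q 0.566). Of 8 motoneuron markers 7 were found, with a summed level of at most 3.68 FPKM in any group; Chat, which makes acetylcholine, Mnx1 and Isl2 were listed at 0 in all groups, so the defining markers of the labelled cell type were absent or nearly so. Markers of other neurons were present, with 5 of 5 genes at level and sums between 36.0 and 154 FPKM per group. Astrocyte and radial glia markers summed to between 414 and 674 FPKM per group.

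The question put to the RNA data was how histone mRNA stands in each knockdown against GFP control. The summed FPKM of the 68 cluster records was 2.38 times the control in hnRNP R knockdown axons and 2.11 times the control in axons labelled 7SK knockdown. In cell bodies and dendrites it was 0.829 times the control with hnRNP R knockdown and 1.51 times the control with 7SK knockdown. The 17 variants gave 1.13, 1.12, 0.963 and 1.35 times the control in the same order. No single histone gene passed the authors' test in any of the 4 tables (q under 0.05), so these are levels of groups with no test of their own. FPKM is a read level scaled for transcript length and sequencing depth, and each group has 1 value made by the authors over its samples, with no spread. In these bulk samples more cells of a type and more RNA per cell cannot be told apart. Cluster genes of one core type are near-identical copies, so how reads were shared out among them is uncertain and sums are safer than single genes.

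In levels, the cluster genes summed to 1377 FPKM in hnRNP R knockdown axons, against 579 in control axons. They summed to 1256 FPKM in axons labelled 7SK knockdown, against 595 in the same control axons as scaled in that table. Both axon comparisons share their control samples, as do both somatodendritic ones, so their values are set side by side and not counted as separate support. The sample descriptions name the comparison tables unevenly for the somatodendritic samples and for 1 of the 7SK axon samples, and groups were taken from the titles. In the somatodendritic tables the cluster sum was 843 FPKM with hnRNP R knockdown, against 1017 in control. It was 1410 FPKM with 7SK knockdown, against 936 in control. The ratio of cluster to variant sum, which the scaling of a table cannot move, was 8.72 in hnRNP R knockdown axons, against 4.13 in control. It was 7.81 in axons labelled 7SK knockdown, against 4.13 in control, and 3.90 and 5.07 on the somatodendritic side with hnRNP R and with 7SK knockdown, against 4.53 in control in both tables.

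**Figure D1:**
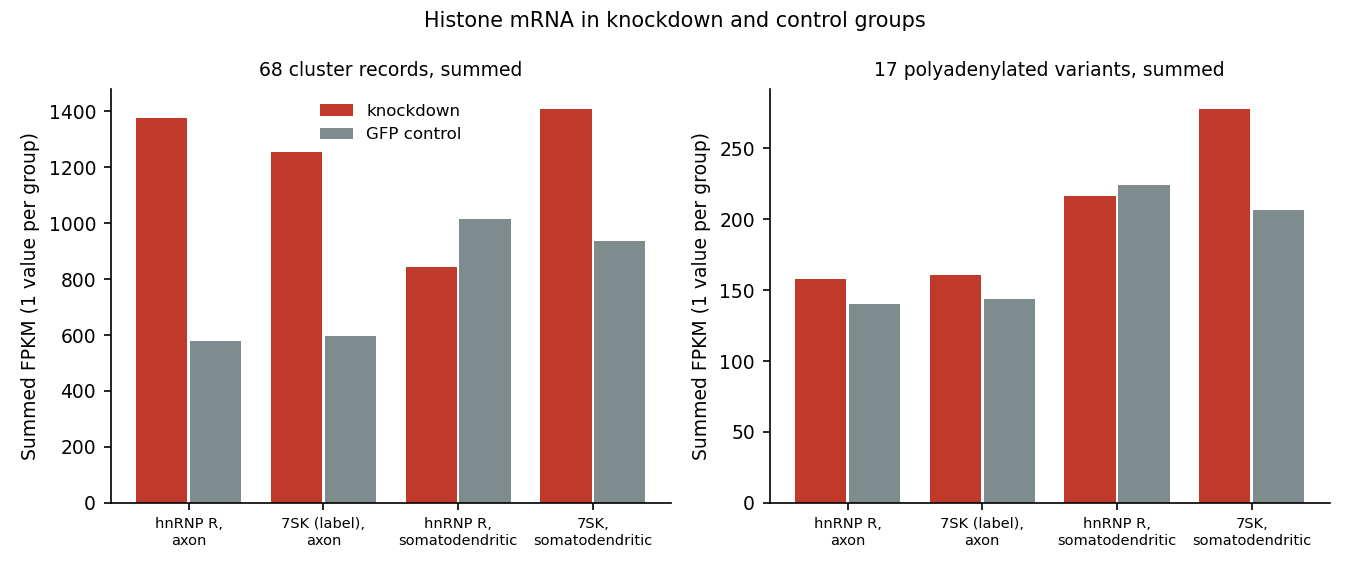
Summed FPKM (vertical axis, from 0) of the 68 cluster records (left) and the 17 polyadenylated variants (right) in each of 4 comparisons, 1 authors' value per group and no replicates. Red knockdown bars exceed the grey control bars for cluster genes in all but the hnRNP R somatodendritic comparison (843 against 1017 FPKM).

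Of the 89 records, 65 had a mean of at least 1 FPKM over the 8 group values (54 cluster genes, 10 variants and the pseudogene Hist3h2bb-ps), 7 lay between 0 and that level and 17 were listed at 0 in all groups. The zeros included the testis and oocyte genes Hist1h1t, Hist1h2ba, H1fnt and H1foo. Among cluster genes at that level and above 0 in both groups, 45 of 52 were higher in hnRNP R knockdown axons than in control, with a median log2 ratio of 1.28, against a median of 0.02 over all 11966 genes chosen the same way. In axons labelled 7SK knockdown 40 of 51 were higher, with a median of 0.93 against 0.05 over 11696 genes. With hnRNP R knockdown on the somatodendritic side 22 of 49 were higher (median -0.17 against 0.01 over 12189 genes), and with 7SK knockdown 40 of 50 (median 0.60 against 0.08 over 12125 genes). The 10 variants had medians of 0.24, 0.07, -0.20 and 0.31 in the same order, with 8, 5, 3 and 9 of 10 higher.

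Most cluster genes are short, and other short genes had medians above those of all genes. Other genes spanning under 1 kb had medians of 0.37 (261 genes) in hnRNP R knockdown axons and 0.61 (235 genes) in axons labelled 7SK knockdown. For cell bodies and dendrites their medians were 0.10 (295 genes) with hnRNP R knockdown and 0.44 (285 genes) with 7SK knockdown. The part of gene length in the histone values was not tested. The 6 cluster genes at this level that are known for polyadenylated mRNA had medians of 1.23, 0.80, -0.19 and 0.62, beside 1.28, 0.93, -0.17 and 0.60 for the other cluster genes.

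**Figure D2:**
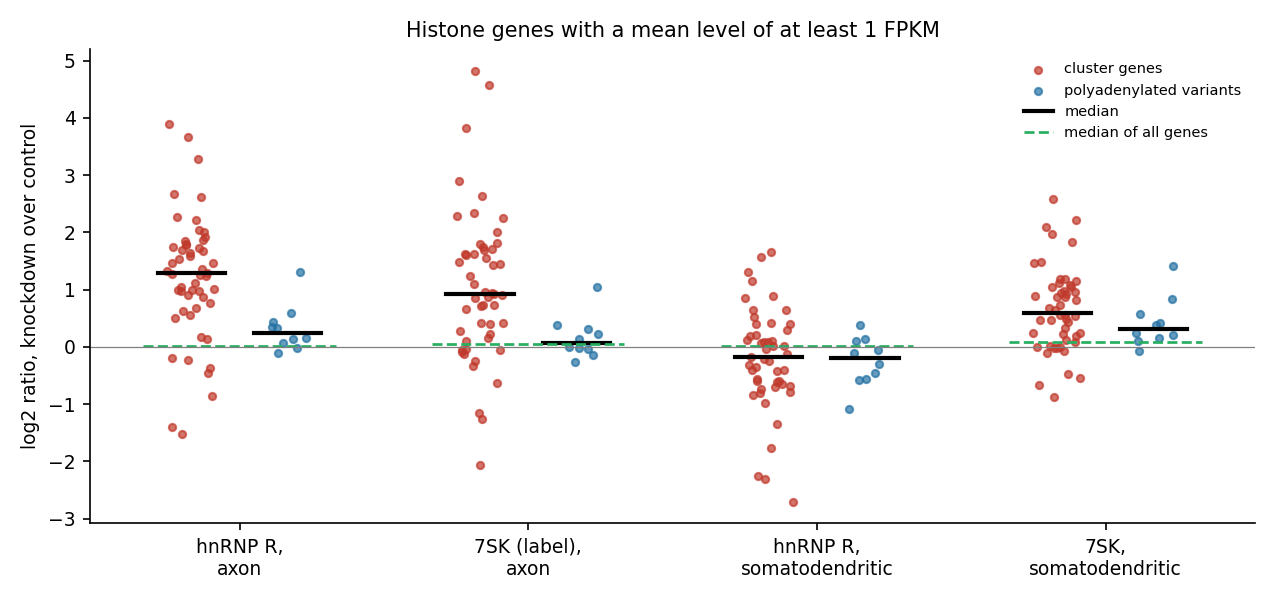
Log2 ratio of knockdown over control (vertical axis) of each histone gene with a mean level of at least 1 FPKM and above 0 in both groups, for cluster genes (red) and variants (blue) in 4 comparisons; black bars are medians and the green dashed line is the median of all genes chosen the same way. The cluster medians lie at 1.28, 0.93, -0.17 and 0.60 from left to right.

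The authors' test was completed for 26 of the 89 records in at least 1 table, 21 cluster genes and 5 variants. A member can become testable through the group where it is high, so the counts below describe the tested members only. In the authors' deposited table of hnRNP R knockdown axons 0 of 19 tested members had a q under 0.05 (0.114% of 1749 tested genes did), the lowest q being 0.221; 7 had an unadjusted p under 0.05, all higher (6.29% of tested genes were higher at that p). In the authors' deposited table of axons labelled 7SK knockdown it was 0 of 8 (3.07% of 1009 genes), with 3 members at an unadjusted p under 0.05, all higher (13.6%). In the authors' deposited table of the hnRNP R somatodendritic comparison it was 0 of 17 (0.975% of 2768 genes), with 1 at the unadjusted p, higher (5.74%). In the authors' deposited table of the 7SK somatodendritic comparison it was 0 of 19 (2.51% of 1954 genes), with 5 at the unadjusted p, all higher (8.29%).

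Linker histones (H1) bind the DNA between nucleosomes. Their cluster genes summed to 209 FPKM in hnRNP R knockdown axons, against 82.5 in control, and to 129 FPKM in axons labelled 7SK knockdown, against 84.9 in control. In the somatodendritic groups they summed to 98.4 FPKM with hnRNP R knockdown, against 105 in control, and to 149 FPKM with 7SK knockdown, against 97.1 in control. Hist1h1a, at chr13:23763668-23764414 as the files give it, carried the lowest q of any member in hnRNP R knockdown axons. It had 71.3 FPKM in hnRNP R knockdown axons, against 22.9 in control, a log2 ratio of 1.64 with an authors' deposited q of 0.221. In axons labelled 7SK knockdown it had 44.1 FPKM, against 23.6 in control, with a q of 0.398 in the authors' deposited table. In cell bodies and dendrites Hist1h1a had 29.1 FPKM with hnRNP R knockdown, against 27.2 in control, and 53.0 FPKM with 7SK knockdown, against 25.1 in control. It thus stood above control in all 4 comparisons, with the smallest gap in the hnRNP R somatodendritic one. Hist1h1e, the H1 gene with the highest mean, had 74.8 FPKM in hnRNP R knockdown axons, against 34.4 in control (log2 ratio 1.12), and its other log2 ratios were 0.11, 0.08 and 0.24. Hist1h1c, which also makes polyadenylated mRNA, had 23.4 FPKM in hnRNP R knockdown axons, against 8.48 in control, and 26.8 FPKM in axons labelled 7SK knockdown, against 8.71 in control. Hist1h1b had 26.7 FPKM in hnRNP R knockdown axons, against 13.2 in control, but 8.79 FPKM in axons labelled 7SK knockdown, against 13.6 in control, so the H1 genes differed among themselves in that group.

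H2A and H2B pair with each other in the nucleosome. The H2A cluster genes summed to 226 FPKM in hnRNP R knockdown axons, against 108 in control, and to 219 FPKM in axons labelled 7SK knockdown, against 111 in control. In cell bodies and dendrites the H2A sum was 153 FPKM with hnRNP R knockdown, against 216 in control, and 279 FPKM with 7SK knockdown, against 199 in control. Among the core types H2A had the lowest summed ratio in the hnRNP R somatodendritic comparison, at 0.706 times the control. The leading H2A record was Hist1h2al, which lies at chr13:51202688-51203065, outside the Hist1 cluster, and which RefSeq of the same build lists as a transcribed pseudogene. Its symbol placed it among the cluster genes, so it is part of the H2A and cluster sums. No sum was made without it, so how far the H2A ratios rest on this record was not tested. Hist1h2al had 96.5 FPKM in hnRNP R knockdown axons, against 40.9 in control (log2 ratio 1.24), and 115 FPKM in axons labelled 7SK knockdown, against 42.0 in control (1.45). In the somatodendritic tables it had 54.3 FPKM with hnRNP R knockdown, against 81.8 in control (-0.59), and 144 FPKM with 7SK knockdown, against 75.3 in control (0.94). Its values were high in both axon comparisons and in 7SK knockdown, and low in hnRNP R knockdown on the somatodendritic side. Hist1h2ak had log2 ratios of 0.90, -0.13, -0.56 and 0.02 in the order of the plots. The record that merges Hist3h2a with the unrelated gene Trim17 had 0.99, 0.74, -0.03 and 0.12, and cannot be split between the 2 genes.

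The H2B gene Hist2h2bb, whose promoter carries the octamer in the sequence above, was the most abundant histone record, at chr3:96267075-96279001. It had 362 FPKM in hnRNP R knockdown axons, against 149 in control (log2 ratio 1.28), and 293 FPKM in axons labelled 7SK knockdown, against 154 in control (0.93). For cell bodies and dendrites it had 162 FPKM with hnRNP R knockdown, against 215 in control (-0.41), and 308 FPKM with 7SK knockdown, against 198 in control (0.64); the q of the 7SK comparison was 0.0797 in the authors' deposited table. It alone made up between 19.2% and 26.3% of the cluster sum of a group. Without it the cluster sum was 2.36, 2.18, 0.849 and 1.49 times the control, so the directions did not rest on this gene. The span of Hist2h2bb in the files overlaps that of Hist2h3b, and reads in the shared stretch cannot be told apart.

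Hist3h2ba, another H2B gene, which has a poly(A) form in differentiated cells, went its own way in axons. It had 13.9 FPKM in hnRNP R knockdown axons, against 15.8 in control, but 57.1 FPKM in axons labelled 7SK knockdown, against 16.3 in control (log2 ratio 1.81, authors' deposited q 0.157). The H2B genes Hist1h2bm, Hist1h2bh, Hist1h2bl and Hist1h2bj had log2 ratios of 1.87, 1.58, 0.97 and 0.76 in hnRNP R knockdown axons, where the authors tested them. The record of Hist1h2bm overlaps that of Hist1h2aj, which was listed at 0. Hist1h2bk was tested with 7SK knockdown on the somatodendritic side only, at 29.4 FPKM against 14.2 in control (1.05). As a group the H2B cluster genes summed to 562 FPKM in hnRNP R knockdown axons, against 248 in control, and to 472 FPKM in axons labelled 7SK knockdown, against 255 in control. In the somatodendritic groups they summed to 279 FPKM with hnRNP R knockdown, against 338 in control, and to 479 FPKM with 7SK knockdown, against 312 in control.

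H3 and H4 form the core of the nucleosome. The H4 genes encode one and the same protein, so single H4 values are the most uncertain of all. The H4 cluster genes summed to 287 FPKM in hnRNP R knockdown axons, against 103 in control (2.79 times), and to 336 FPKM in axons labelled 7SK knockdown, against 106 in control (3.18 times), the highest ratio of the 5 core types in each of those tables. On the somatodendritic side they summed to 268 FPKM with hnRNP R knockdown, against 308 in control, and to 438 FPKM with 7SK knockdown, against 284 in control.

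Hist1h4d, at chr13:23581598-23581990, was the most abundant H4 record. It had 103 FPKM in hnRNP R knockdown axons, against 35.5 in control (log2 ratio 1.53), and 122 FPKM in axons labelled 7SK knockdown, against 36.6 in control (1.74). In cell bodies and dendrites it had 105 FPKM with hnRNP R knockdown, against 104 in control (0.01), and 139 FPKM with 7SK knockdown, against 95.6 in control (0.54). The gene was thus higher in both axon comparisons and level with control under hnRNP R knockdown on the somatodendritic side. In the authors' deposited table of axons labelled 7SK knockdown its q was 0.106, the lowest of any member there. The other H4 genes tested in some table were Hist1h4c, Hist1h4f, Hist1h4k, Hist1h4h and Hist1h4a, with log2 ratios of 1.75, 1.79, 3.67, 0.87 and 0.50 in hnRNP R knockdown axons and 2.25, 0.93, 2.90, 0.95 and 1.56 in axons labelled 7SK knockdown. Of these, Hist1h4a was untested in hnRNP R knockdown axons, and only Hist1h4c and Hist1h4a were tested in axons labelled 7SK knockdown. Hist1h4k had a low control, with 23.9 FPKM in hnRNP R knockdown axons, against 1.88 in control. Of the H3 cluster genes only Hist1h3c was tested, in hnRNP R knockdown axons, where it had 25.2 FPKM, against 6.68 in control (1.92, authors' deposited q 0.485). The H3 cluster genes summed to 94.3 FPKM in hnRNP R knockdown axons, against 37.4 in control, and to 99.4 FPKM in axons labelled 7SK knockdown, against 38.5 in control. In the somatodendritic tables the H3 sum was 45.3 FPKM with hnRNP R knockdown, against 48.6 in control, and 65.0 FPKM with 7SK knockdown, against 44.7 in control.

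**Figure D3:**
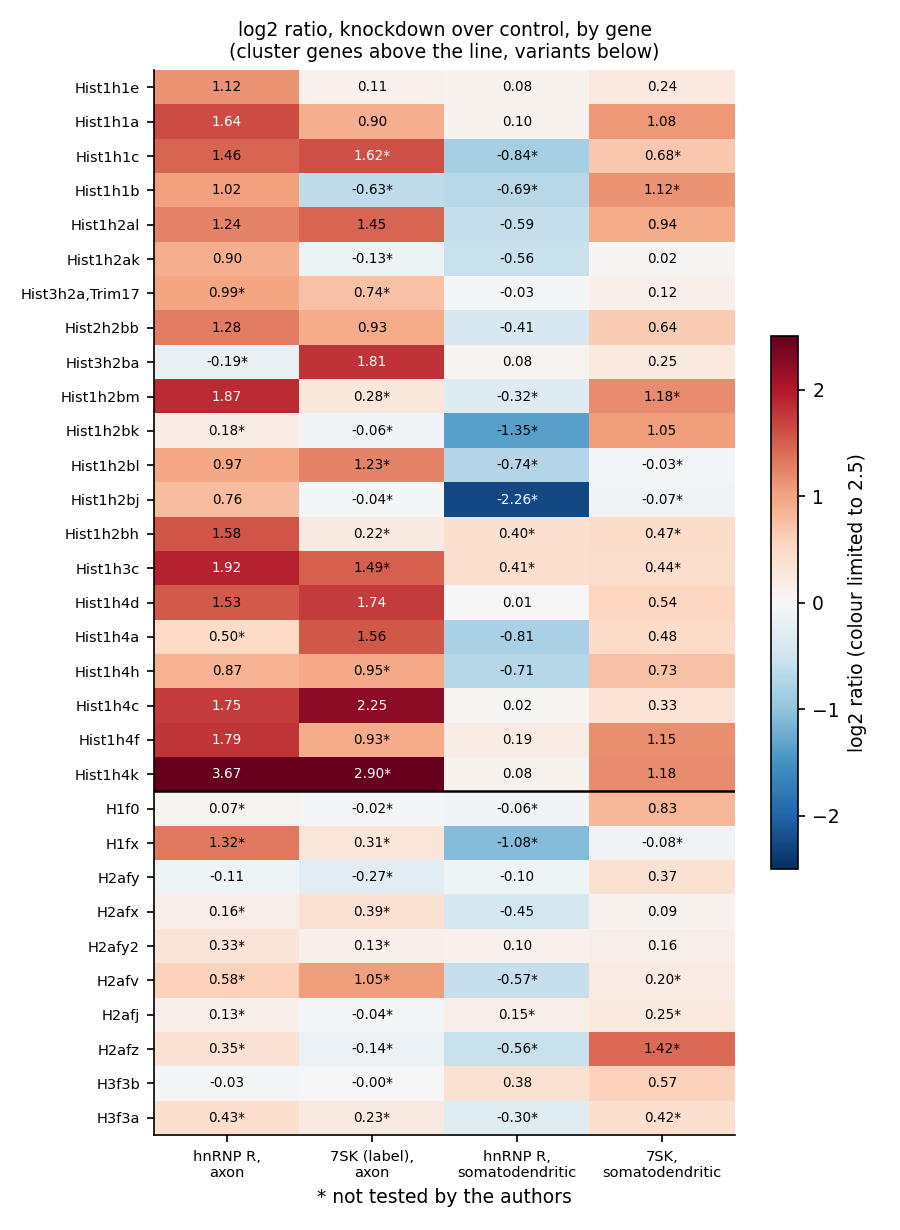
Log2 ratio of knockdown over control, by colour and number, for the 21 cluster genes the authors tested in at least 1 table (above the line, by core type H1, H2A, H2B, H3, H4) and the 10 variants with a mean of at least 1 FPKM (below), in 4 comparisons (columns); an asterisk marks a value the authors did not test. In the first column 20 of the 21 cluster genes lie above 0, and Hist3h2ba lies at -0.19.

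By position, the 2 blocks of the Hist1 cluster on chromosome 13 had different medians. The block that holds Hist1h4k had 15 of 18 genes higher in hnRNP R knockdown axons, with a median of 0.97, and the block that holds Hist1h4d had 23 of 26, with a median of 1.61. In axons labelled 7SK knockdown the medians were 0.40 (11 of 17 higher) and 1.19 (22 of 26). With hnRNP R knockdown on the somatodendritic side they were -0.58 (4 of 16) and 0.10 (16 of 25), and with 7SK knockdown 0.67 (11 of 18) and 0.62 (22 of 24). The difference between the blocks was not tested.

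Among the variants, H3f3b, 1 of 2 genes for H3.3, the H3 that is placed outside DNA replication, had 33.1 FPKM in hnRNP R knockdown axons, against 33.8 in control, and 34.7 FPKM in axons labelled 7SK knockdown, against 34.7 in control. For cell bodies and dendrites H3f3b had 70.3 FPKM with hnRNP R knockdown, against 54.2 in control (log2 ratio 0.38, authors' deposited q 0.301). With 7SK knockdown it had 74.0 FPKM, against 49.9 in control (0.57), and its q of 0.0719 in the authors' deposited table was the lowest of any histone gene in the study. It was the 1 gene of either class at an unadjusted p under 0.05 with hnRNP R knockdown on the somatodendritic side. H3f3a, the other H3.3 gene, had log2 ratios of 0.43, 0.23, -0.30 and 0.42, all untested.

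H1f0, the linker histone that accumulates in cells that have stopped dividing, had 30.9 FPKM in the 7SK knockdown somatodendritic side, against 17.4 in control (log2 ratio 0.83, authors' deposited q 0.0726), and log2 ratios of 0.07, -0.02 and -0.06 elsewhere. The macroH2A genes H2afy and H2afy2 encode H2A with a large extra domain. H2afy had 26.8 FPKM in hnRNP R knockdown axons, against 29.0 in control, and its 4 log2 ratios ran from -0.27 to 0.37. H2afy2 ran from 0.10 to 0.33 and stood, in the hnRNP R tables, at 12.9 FPKM in knockdown axons, against 10.3 in control, and at 29.9 FPKM in the knockdown somatodendritic side, against 27.9 in control. H2afx, which is phosphorylated at DNA breaks, ran from -0.45 to 0.39. The H2A.Z genes H2afz and H2afv had their highest log2 ratios in different places, H2afz 1.42 with 7SK knockdown on the somatodendritic side (18.1 FPKM, against 6.77 in control) and H2afv 1.05 in axons labelled 7SK knockdown (27.8 FPKM, against 13.4 in control), both untested. H2afj ran from -0.04 to 0.25, H1fx from -1.08 to 1.32, and H2afy3 stayed under 1 FPKM except for 1.79 FPKM with 7SK knockdown on the somatodendritic side.

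Whether the knockdown ratio of a histone gene differed between axon and somatodendritic side was tested with an approximate z test, taking standard errors from the authors' p-values. For hnRNP R knockdown 12 members were tested on both sides and 0 passed Benjamini-Hochberg adjustment over all 1505 genes (0% of these passed). At an unadjusted p under 0.05 there were 5 of the 12, beside 6.91% of all genes: Hist2h2bb, with an axon minus somatodendritic difference of 1.69 ± 0.59 (SE), Hist1h2al with 1.83 ± 0.64, Hist1h4d with 1.52 ± 0.63, Hist1h1a with 1.54 ± 0.67 and Hist1h2ak with 1.47 ± 0.68. H3f3b had -0.40 ± 0.46 and H2afy -0.01 ± 0.55. For 7SK 0 of 8 members passed (0.45% of 888 genes did) and 0 had an unadjusted p under 0.05; the axon group there is the one that did not show lower 7SK. With standard errors from the authors' test statistic, 0 members passed and 0 had an unadjusted p under 0.05 in either case. Of all genes, 0% of 1505 with hnRNP R and 0.338% of 888 with 7SK had such a p. This alternative could thus hardly call any gene, and its zeros say nothing particular about histone genes.

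Markers of other cells were read beside these values. The 16 genes of dividing cells summed to 275 FPKM in hnRNP R knockdown axons, against 225 in control, with 14 of 16 higher (median log2 ratio 0.33). In axons labelled 7SK knockdown they summed to 219 FPKM, against 231 in control, with 7 of 15 higher (median -0.02). In the somatodendritic groups they summed to 131 FPKM with hnRNP R knockdown, against 149 in control, and to 197 FPKM with 7SK knockdown, against 137 in control, where 16 of 16 were higher (median 0.57). The dividing-cell sum and the cluster histone sum thus stood on the same side of control in 3 of 4 comparisons. Mki67, found in cycling cells, was 1 of the 2 dividing-cell genes that were lower in hnRNP R knockdown axons, at 11.8 FPKM, against 17.6 in control. In axons labelled 7SK knockdown, where 8 of these genes were lower, it had 13.5 FPKM, against 18.0 in control. On the somatodendritic side it had 7.08 FPKM with hnRNP R knockdown, against 8.42 in control, and 8.47 FPKM with 7SK knockdown, against 7.75 in control. The 11 microglia and macrophage markers summed to 202 FPKM in axons labelled 7SK knockdown, against 16.0 in control, with 10 of 10 at level higher. In hnRNP R knockdown axons they summed to 27.9 FPKM, against 15.6 in control, and on the somatodendritic side to 73.9 FPKM with hnRNP R knockdown, against 87.6 in control, and to 112 FPKM with 7SK knockdown, against 80.6 in control. Fibroblast and smooth muscle markers summed to 1029 FPKM in hnRNP R knockdown axons, against 790 in control, and to 345 FPKM in axons labelled 7SK knockdown, against 814 in control. The fibroblast and smooth muscle sum of cell bodies and dendrites was 101 FPKM with hnRNP R knockdown, against 121 in control, and 183 FPKM with 7SK knockdown, against 112 in control. Oligodendrocyte and Schwann cell markers summed to 40.8 FPKM in hnRNP R knockdown axons, against 19.2 in control (4 of 5 at level higher), and to 30.6 FPKM in axons labelled 7SK knockdown, against 19.7 in control (3 of 5). Among somatodendritic groups these glial markers summed to 111 FPKM with hnRNP R knockdown, against 77.8 in control, and to 92.7 FPKM with 7SK knockdown, against 71.6 in control, with 5 of 5 higher in each. The oligodendrocyte and Schwann cell sums stood above control in all 4 comparisons, and the cluster histone sum in 3. Astrocyte and radial glia markers summed to 674 FPKM in hnRNP R knockdown axons, against 650 in control. They summed to 494 FPKM in axons labelled 7SK knockdown, against 668 in control. Their somatodendritic sums were 448 FPKM with hnRNP R knockdown, against 450 in control, and 428 FPKM with 7SK knockdown, against 414 in control. Of all listed markers, Gpnmb (higher), Acta2 and Nes (lower) had an authors' deposited q under 0.05 in axons labelled 7SK knockdown. On the somatodendritic side Acta2 (higher) with 7SK knockdown and Slc6a5 (lower), a marker of other neurons, with hnRNP R knockdown had one. The part of other cells in the histone values was not tested.

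Few of the genes that make and process cluster histone mRNA were tested by the authors. Of 21 such genes for transcription and 3′ end formation, 4 were higher and 16 lower in hnRNP R knockdown axons (median log2 ratio -0.21), and 7 were higher and 12 lower in axons labelled 7SK knockdown (median -0.22). Among somatodendritic groups 9 were higher and 11 lower with hnRNP R knockdown (median -0.04), and 12 were higher and 8 lower with 7SK knockdown (median 0.11). The authors' deposited tables hold a completed test for 3 in hnRNP R knockdown axons, 0 in axons labelled 7SK knockdown, and 4 and 1 in the somatodendritic groups with hnRNP R and 7SK knockdown, with no q under 0.05. Slbp had 7.77 FPKM in hnRNP R knockdown axons, against 13.0 in control, and in the somatodendritic table it had 11.7 FPKM with hnRNP R knockdown, against 26.2 in control (q of 0.209 in the authors' deposited table). Its log2 ratio was -0.22 in axons labelled 7SK knockdown and -0.58 with 7SK knockdown in the somatodendritic table, both untested. Lsm10, a part of the U7 particle named after its values were seen, had 9.82 FPKM in hnRNP R knockdown axons, against 3.94 in control, and 12.1 FPKM in axons labelled 7SK knockdown, against 4.06 in control. Lsm10 had log2 ratios of 0.84 with hnRNP R and 1.12 with 7SK knockdown in the somatodendritic tables, all 4 of its ratios being untested, so Slbp and Lsm10 lay on opposite sides of control. Lsm11, the other U7 protein named above, had log2 ratios of -0.09 in hnRNP R knockdown axons and 0.89 in axons labelled 7SK knockdown. Its somatodendritic log2 ratios were -0.04 with hnRNP R and 0.60 with 7SK knockdown, also untested. The 17 histone chaperones, which carry histones to DNA, had medians of 0.12, -0.03, 0.02 and 0.08. A completed test was present for 6, 2, 8 and 5 of them in the authors' deposited tables, with no q under 0.05.

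The iCLIP tables asked where hnRNP R was crosslinked to histone RNA. hnRNP R cDNAs on histone genes lay mostly on the variants, and mainly on the macroH2A gene H2afy and the 2 H3.3 genes. Cluster genes had more cDNAs for their depth with IgG than in the unfractionated hnRNP R libraries. For the library labelled IgG, the file's own header gives hnRNP R as the protein; it also carries the library number of NSC34 replicate 2, with a different experiment number. The label was followed, and values set against this library rest on that. The libraries held between 2796 and 456721 cDNAs on the sense strand of genes, and the IgG library 36280. Over the 11 libraries the 83 members had 910 cDNAs, 643 on variants and 267 on cluster genes, and 50 members had at least 1.

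Per 100000 cDNAs, cluster genes had 2.79 (95% Wilson interval 1.51 to 5.13, 10 cDNAs) and 4.38 (2.61 to 7.36, 14 cDNAs) in the unfractionated motoneuron libraries. In the NSC34 libraries they had 26.1 (21.8 to 31.2, 119 cDNAs) and 43.1 (32.0 to 58.0, 43 cDNAs), and with IgG in NSC34 179 (141 to 228, 65 cDNAs). Variants had 25.3 and 25.7 in motoneurons, 65.2 and 63.2 in NSC34 cells and 41.3 (25.1 to 68.2, 15 cDNAs) with IgG. Intervals cover counting error only. On this scale of library totals the cluster values were lowest in motoneurons and highest with IgG. How many other genes had this order was not counted. The IgG interval of the variants held the variant values of all 4 hnRNP R libraries. Pooled, cluster genes were 8.23-fold lower in motoneurons than in NSC34 cells per cDNA total (exact counting interval 5.34 to 13.2) and 4.22-fold lower with TMM factors (2.74 to 6.78). Variants were 2.54-fold lower per total (2.12 to 3.07) and 1.3-fold lower with TMM factors (1.09 to 1.57).

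**Figure D4:**
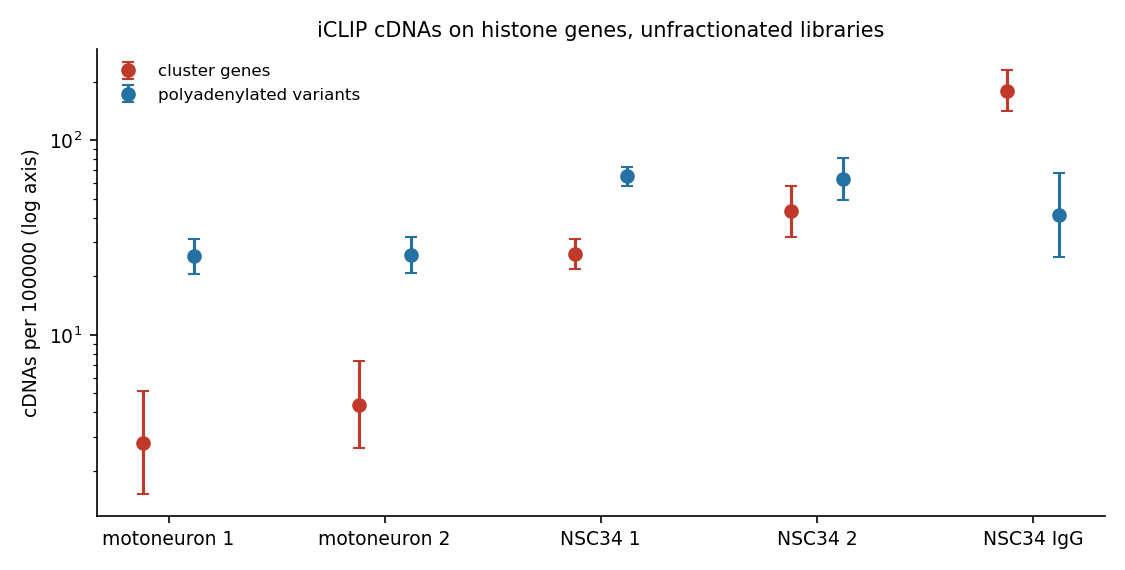
cDNAs per 100000 on cluster genes (red) and on polyadenylated variants (blue) in the 5 unfractionated iCLIP libraries, on a log axis; bars are 95% Wilson intervals of counting. Cluster values lie at 2.79 and 4.38 in motoneurons, 26.1 and 43.1 in NSC34 cells and 179 with IgG.

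As a share of the histone cDNAs of a library, cluster genes made up 12.2% ± 3.3 in motoneurons and 34.6% ± 8.5 in NSC34 cells (SD, n = 2 each), a difference of -22.3 percentage points. An exact two-sided permutation test gave p = 0.333, the smallest that 2 libraries against 2 can give. With IgG the share was 81.2% (Wilson interval 71.3% to 88.3%). In the fractions the cluster share averaged 10.2% ± 13.8 in nuclear and 37.0% ± 31.3 in cytoplasmic libraries (SD, n = 3 pairs), lower in 2 of 3 nuclear libraries and higher in 1, with an exact sign-flip p of 0.5 (smallest possible 0.25). These libraries held between 3 and 47 histone cDNAs each. Per 100000 cDNAs, cluster genes had 112 (Wilson interval 43.6 to 288) in the NSC34 cytoplasmic library of antibody 1. In that of antibody 2 they had 71.5 (19.6 to 260), and both intervals held the IgG value of 179. The nuclear library of antibody 2 had 0 cluster cDNAs, with a Wilson interval that reached 51.2 per 100000.

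Motoneuron and NSC34 libraries were compared gene by gene with edgeR's quasi-likelihood test. Of 12 histone genes with enough cDNAs 6 passed, 1 higher and 5 lower in motoneurons, beside 37.3% of all 9567 genes tested (23.4% higher, 13.9% lower). NSC34 cells divide, and the part of cell division in this comparison was not tested. The series has no RNA values of NSC34 cells, so a different RNA level and different crosslinking per RNA cannot be told apart. The scaling bears on the direction: with TMM factors the median log2 fold change of all genes was 0.08, and with library totals alone -0.86. With totals alone 9 of the 12 members passed, 1 higher and 8 lower, beside 51.2% of all genes (14.0% higher, 37.1% lower). With DESeq2 as the test 2 members passed, beside 15.2% of all genes.

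H2afy2 was the member that rose. It had 19 and 21 cDNAs in motoneurons, against 1 and 0 in NSC34 cells, a log2 fold change of 5.55 ± 0.81 (SE, adjusted p = 2.82e-08 with edgeR). Per cDNA total the pooled ratio was 32.8, with an exact counting interval of 5.56 to 1328. It was called in all alternatives run, with adjusted p up to 0.00551 (DESeq2). H2afy, its close relative, fell by 1.04 ± 0.29 on the log2 scale (adjusted p = 0.0029 with edgeR). It had 35 and 27 cDNAs in motoneurons, against 165 and 36 in NSC34 cells, and with DESeq2 its adjusted p was 0.0574. H2afv fell as well, with 1 and 1 cDNAs in motoneurons, against 32 and 2 in NSC34 cells (adjusted p = 0.0029 with edgeR), a pooled ratio per cDNA total of 0.0483 (0.00562 to 0.188); NSC34 replicate 1 gave 32 of the 34 cDNAs, without it H2afv had too few to be tested, and DESeq2 gave it no adjusted p.

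The 3 called cluster genes had 0 cDNAs in both motoneuron libraries. Hist1h4a had 19 and 9 cDNAs in NSC34 cells, which is at least 11.4-fold lower in motoneurons per cDNA total and at least 5.84-fold lower with TMM factors, with 3 counts over the group as the floor (adjusted p = 0.000124 with edgeR). These folds and those of the next 2 genes take the NSC34 count as exact, so its counting error could make them smaller. Hist1h4d had 15 and 4, at least 7.72-fold lower per total and 3.96-fold lower with TMM factors (adjusted p = 0.00258 with edgeR, 0.058 with DESeq2). Hist1h1c had 5 and 5, at least 4.06-fold lower per total and 2.08-fold lower with TMM factors (adjusted p = 0.0264 with edgeR). The call of Hist1h1c was lost without motoneuron replicate 1 (adjusted p = 0.0833), without motoneuron replicate 2 (0.0843), with the replicate number as a block (0.0577) and with DESeq2 (0.0944). Without NSC34 replicate 1 the members called were 3, H2afy, H2afy2 and Hist1h4a, among 6 left to test; with DESeq2 they were 2, H2afy2 and Hist1h4a. Without NSC34 replicate 1 Hist1h4d and Hist1h1c had too few cDNAs to be tested, and Hist1h1c also without NSC34 replicate 2, so no fit that left out 1 of these 4 hnRNP R libraries called Hist1h1c; it was called without the IgG library (adjusted p = 0.0338 by edgeR's quasi-likelihood test).

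The H3.3 genes did not pass. H3f3a had 10 and 20 cDNAs in motoneurons, against 53 and 14 in NSC34 cells (log2 fold change -0.53 ± 0.42, adjusted p = 0.335 with edgeR); with library totals alone it was -1.48 (adjusted p = 0.00139), and without motoneuron replicate 2 it was -1.27 (adjusted p = 0.0427). H3f3b had 26 and 11 cDNAs in motoneurons, against 41 and 11 in NSC34 cells (log2 fold change 0.12 ± 0.42, adjusted p = 0.857 with edgeR); this value turned negative under 6 of the alternatives and was called in none.

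Against IgG, 0 of the 12 tested histone genes passed in NSC34 cells with edgeR (0.533% of 9567 genes did), 2 had an unadjusted p under 0.05 (10.3% of genes did), and DESeq2 called 0, with 0 at an unadjusted p under 0.05. IgG is 1 library here, which the fit assumes to vary like the other groups. Both of the 2 were lower with hnRNP R. Hist1h1d had 6 and 2 cDNAs with hnRNP R, against 6 with IgG in a far smaller library (log2 fold change -3.16 ± 1.12, adjusted p = 0.242 with edgeR). Hist2h2bb had 8 and 3, against 5 with IgG (-2.45 ± 1.05, adjusted p = 0.373 with edgeR). Pooled per cDNA total, the cluster genes of NSC34 cells were at 0.162 times the IgG value (exact counting interval 0.121 to 0.220) and the variants at 1.57 times (0.939 to 2.83), or 1.91 times with TMM factors (1.14 to 3.45). These intervals cover counting only and rest on the single IgG library; that of the variants held 1 per total but not with TMM factors. H2afy had 36.1 per 100000 with hnRNP R, against 22.1 with IgG, and H3f3b 9.34, against 2.76, which was 1 cDNA.

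Between nuclear and cytoplasmic fractions, 4 members, all variants, had enough cDNAs for edgeR, and 0 passed (0% of 5177 genes did), with 0 at an unadjusted p under 0.05 (0.522% of genes had one) and 0 with DESeq2. H2afy had 8 cDNAs in the nuclear and 21 in the cytoplasmic motoneuron library, H2afy2 10 and 8, H3f3a 2 and 8, and H3f3b 1 and 7. In the NSC34 pairs H2afy had 9 nuclear and 0 cytoplasmic cDNAs with antibody 1, and 3 and 0 with antibody 2. The motoneuron nuclear library held 91302 cDNAs in all and the cytoplasmic one 194816.

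Where the cDNAs lay within the genes differed among members. Over the 10 hnRNP R libraries, H3f3b had 98.0% of its 100 cDNAs in the 3′ UTR (Wilson interval 93.0% to 99.4%) and 0 in introns, and H3f3a had 54.4% of 114 in the 3′ UTR (45.2% to 63.2%) and 41.2% in introns. H2afy had 89.1% of 304 cDNAs in introns (85.1% to 92.2%), H2afy2 93.3% of 60 and H2afv 80.5% of 41. Over all genes 83.6% of cDNAs were intronic and 6.99% in 3′ UTRs. The intron shares of H2afy and H2afy2 (interval 84.1% to 97.4%) lay above that of all genes, and those of both H3.3 genes below it. The 2 H4 genes had 89.7% of 29 (Hist1h4a) and 85.7% of 21 (Hist1h4d) in the 3′ UTR, which in these mRNAs is short and holds the stem-loop. In the IgG library 4 of 4 and 3 of 3 cDNAs of these genes lay there too. Cluster genes together had 60.4% of 202 cDNAs in 3′ UTRs (53.5% to 66.9%) and 20.3% in coding sequence with hnRNP R, against 44.6% of 65 (33.2% to 56.7%) and 47.7% with IgG. Hist2h2bb had 0 of 23 cDNAs in a 3′ UTR over all 11 libraries and 65.2% in its annotated intron.

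**Figure D5:**
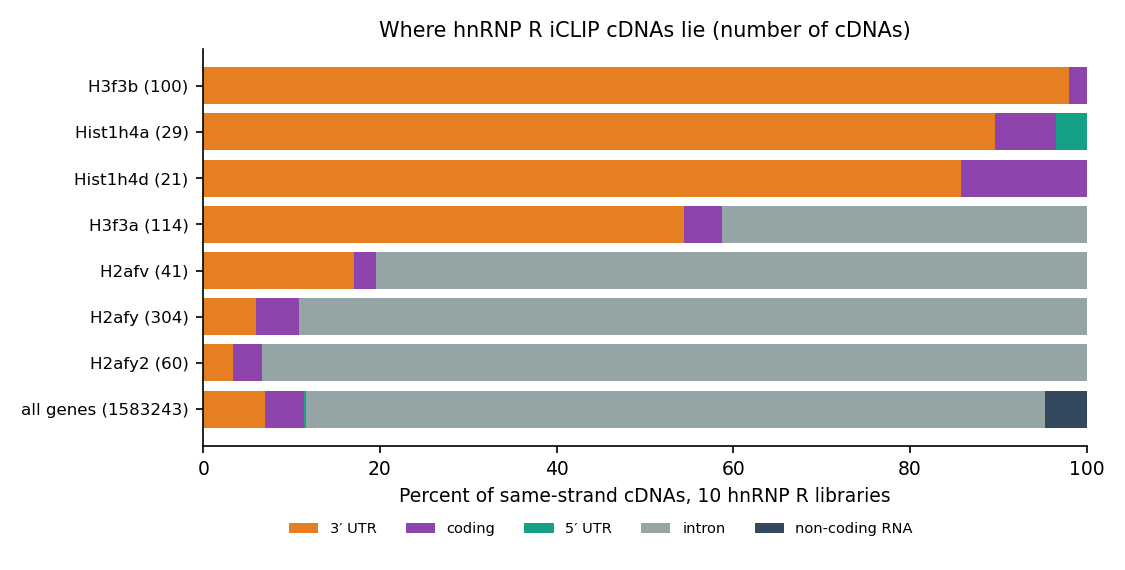
Percent of same-strand cDNAs of the 10 hnRNP R libraries by part of the gene (horizontal axis), for 7 histone genes and for all genes; numbers in brackets are cDNAs. H3f3b, Hist1h4a and Hist1h4d are mostly 3′ UTR (98.0%, 89.7% and 85.7%), and H2afy and H2afy2 mostly intron (89.1% and 93.3%).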

How the data were processed

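RNA values were FPKM per gene and group, made by the authors with Cufflinks 2.2.1 on build GRCm38 after FastQC 0.10.1, per the submitters' processing notes; each table was scaled separately and holds 1 value per group. The log2 fold changes, p-values and q-values and the score (test statistic) are the authors' and were deposited in 4 tables; log2 ratios recomputed from FPKM differed from the deposited ones by at most 5.07e-05. No depth is given for the RNA samples. iCLIP values were deposited as counts of cDNAs per gene, on mm9 with Ensembl release 59 per the file headers; 1243 other per-sample columns were not used. No aligner or library type is named in the labels or headers.

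RNA calls needed a completed authors' test and q under 0.05. Medians used genes with a mean of at least 1 FPKM over the 8 group values and above 0 in both groups. iCLIP counts were fitted with edgeR 4.0.16 (quasi-likelihood, TMM, at least 10 cDNAs over the libraries, Benjamini-Hochberg), unfractionated libraries in 1 fit and fractions with the pair of cells and antibody as a block; DESeq2 1.42.0 was an alternative. Standard errors of edgeR values were taken from the F statistic. The edgeR fits and the z test of axon against somatodendritic ratios were tested on simulated data. Promoters came from RefSeq. Members called, tested by the authors, at 1 FPKM or more among variants, or with at least 50 cDNAs are named. The members and lists were chosen with earlier results of these data known.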

Additional observations from a re-analysis of the deposited data

How the results depend on the processing

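The count of histone genes called by the authors' q was 0 in all 4 RNA tables; at an unadjusted p under 0.05 it was 7 in hnRNP R knockdown axons, 3 in axons labelled 7SK knockdown, 1 with hnRNP R and 5 with 7SK knockdown on the somatodendritic side. Leaving out merged records kept 0. The median log2 ratio of the tested members in axons labelled 7SK knockdown, 1.51, was 0.86 over all members at 1 FPKM or more in either group and 0.74 over members with a mean of at least 1 FPKM. The median of each comparison kept its sign under each alternative except with hnRNP R knockdown on the somatodendritic side, where 0.01 became -0.23 over all members at 1 FPKM or more in either group, -0.0108 after centring on all tested genes and -0.19 over members with a mean of at least 1 FPKM (chosen after seeing the data); the cause was not tested. Of 12 members tested between motoneurons and NSC34 cells 6 were called, beside 37.3% of all genes. With DESeq2 it was 2 (15.2% of all genes), with DESeq2 size factors 7 (37.4%) and with library totals alone 9 (51.2%). With the replicate number as a block it was 5 of 11 (34.1%). Calls lost when 1 library was left out are given with the genes above. Same-numbered libraries showed no shared deviation (correlation -0.0131 over 4499 genes). With 2 libraries of each kind of cell this is 1 correlation, which cannot tell whether the number is a pairing. H3f3b between motoneurons and NSC34 cells, not called in any fit, turned to -0.00649 with DESeq2 size factors, -0.0623 with DESeq2, -0.11 with no filter and -0.84 with library totals, and ranged between -0.68 (without motoneuron replicate 1) and 0.47 (without motoneuron replicate 2) when 1 library was left out; without NSC34 replicate 1 it was -0.27. The cause was not tested. Against IgG and between fractions the count of called members was 0 under each alternative, with no replicate block too. Fits without the IgG library, with library totals alone, and cluster sums without Hist2h2bb or the merged record were chosen after seeing the data. No paired analysis was possible for the RNA tables because they hold 1 value per group. Few cDNAs on cluster genes, 267 in all, and no spread between RNA samples set the limits here.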
